A study of Homo sapiens with 6 samples.

Results

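Mitosis genes encode the proteins that condense chromosomes, attach them to the spindle, hold back anaphase until every chromosome is attached, and divide the cell. The set described here held 44 genes, chosen by name, and all 44 were among the 28847 genes listed in the deposited table. They comprised 6 genes of the spindle checkpoint, 9 of the kinetochore and centromere, 6 of the chromosomal passenger complex and the shugoshins, 8 of the mitotic cyclins, CDK1 and its activators, 4 of anaphase onset, 9 of spindle motors, the midzone and cytokinesis, and 2 of the mitotic chromosome. RNA-seq of poly(A) RNA covered 2 groups of 3 libraries: THP-1 cells given recombinant human RBP4, the plasma carrier of retinol, and THP-1 cells alone, the control. THP-1 is a human monocytic leukaemia line, presented in the series as a model of unpolarized (M0) macrophages. Neither dose nor time was given, and nothing in the labels says whether the libraries of a group came from separate cultures, so p-values measure only the spread between these libraries, which may be technical.

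In mitosis, the cyclin-dependent kinase CDK1 with cyclin B starts chromosome condensation and spindle assembly. Kinetochores, built on centromeres that carry the histone variant CENP-A, bind spindle microtubules through the NDC80 complex. An unattached kinetochore recruits the checkpoint kinases and the MAD and BUB proteins, which restrain CDC20, the activator of the anaphase-promoting complex, until attachment is complete. Transcripts of many of these genes are low in resting cells and highest in the G2 and M phases, so in bulk RNA fewer cells in these phases and less RNA per cell cannot be told apart.

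Depth lay between 15202000 and 16420517 recovered reads per library, where 3 reads, the limit that a count of 0 allows, came to between 0.183 and 0.197 CPM (reads scaled to the library total); such limits cover counting error only. Of 10 monocyte and macrophage markers analysed, none reached 10 CPM in all 6 libraries, and their summed level was 25.9 to 29.6 CPM in RBP4 libraries and 17.3 to 19.2 CPM in control libraries. CD14 was at 0 in the RBP4 libraries and averaged 0.0858 ± 0.0397 CPM in the control libraries (SD, n = 3), MRC1 was at 0 in the RBP4 libraries, and CD163 was at 0 in the control libraries. LYZ and ITGAM, the 2 of the 10 high enough to be tested, made up most of the sum and both rose: LYZ averaged 16.4 ± 1.20 CPM in RBP4 libraries and 11.2 ± 1.64 CPM in control libraries (limma adjusted p = 5.2e-05), and ITGAM 10.9 ± 1.58 CPM in RBP4 libraries and 6.37 ± 0.693 CPM in control libraries (limma adjusted p = 6.6e-06). Of 12 erythroid markers, 11 reached 10 CPM in all 6 libraries, with sums of 1806 to 1870.1 CPM in RBP4 libraries and 2105 to 2123 CPM in control libraries. Such levels are not those of a monocytic line, against the label, and the groups are called RBP4 and control with no cell type. Mitochondrially encoded genes took 7.58% to 7.69% of the reads in RBP4 libraries and 5.90% to 6.10% in control libraries. The part of these differences in the results below was not tested.

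BUB1 fell furthest of the mitosis genes, and most of the others fell by less. Of the 44 genes, 43 had a normalized value (reads divided by 1 size factor per library) of at least 10 in at least 3 libraries and were tested, 35 fell in the RBP4 libraries, 1 rose and 7 missed an adjusted p of 0.05 (limma, Benjamini-Hochberg over all 15676 genes tested). Over all genes tested, 50.6% passed in either direction. The share that fell, 81.4%, stands beside 26.1% of all genes tested, and the share that rose, 2.33%, beside 24.5%. Mitosis genes were well expressed, and well expressed genes fell more often: of the 2395 genes whose mean lay within the middle range of the set (1040.0 to 2399 normalized reads, its interquartile range), 51.0% fell and 16.4% rose. The median log2 fold change of the 43 genes was -0.26, against -0.10 for those 2395 genes and -0.0021 for all genes tested. In total the 44 genes took 0.541% to 0.551% of the reads in RBP4 libraries and 0.659% to 0.662% in control libraries. With the libraries scaled to their total reads, 30 of the 43 fell and 2 rose, with NUF2, KNL1, AURKB, SGO2 and NUSAP1 lost, and over all genes the raised share of the calls was 61.7% in place of 48.4%.

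**Figure D1:**
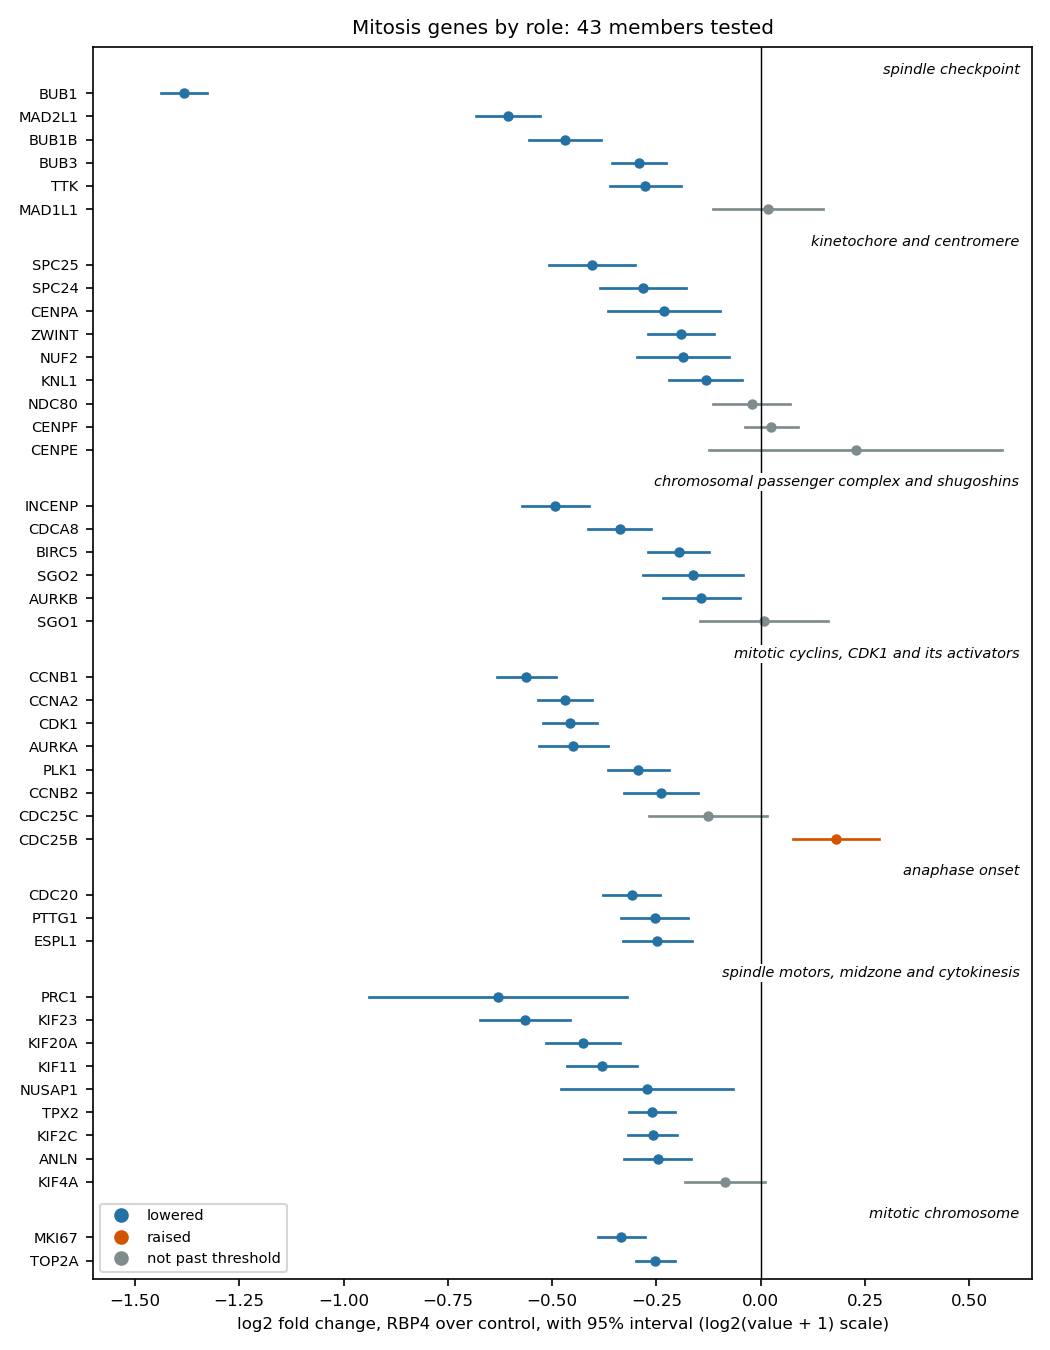
Log2 fold change, RBP4 over control, of the 43 mitosis genes tested, grouped by role. Points are limma estimates on the log2(value + 1) scale and lines their 95% intervals; blue marks genes that fell, orange the 1 that rose and grey the 7 that did not pass. BUB1, at -1.38, lies apart from all others.

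BUB1, the kinase that phosphorylates centromeric histone H2A and recruits shugoshins and other checkpoint proteins (ENSG00000169679, chromosome 2, 110637698 to 110678114 on GRCh38), had 3487, 3478 and 3511 normalized reads in RBP4 libraries 1, 2 and 3, against 9157, 9083 and 9059 in control libraries 1, 2 and 3. The 3 RBP4 libraries were nearly equal to each other, as were the 3 control libraries, and the groups lay far apart. The mean was 3492 ± 17.3 in RBP4 libraries and 9099.6 ± 51.2 in control libraries (SD, n = 3 each), a 2.61-fold fall (log2 fold change -1.38, SE 0.028, limma adjusted p = 1.0e-50). Over 14 alternative settings the estimate stayed between -1.39 and -1.31. It was the 1 gene of the set with a log2 fold change of -1 or lower among those that fell, as were 1.45% of all genes tested. Among the 4096 genes that fell, 85 fell as much as BUB1 or more, itself included, 37 of them protein-coding. Per kilobase of gene length BUB1 ranked 3 of the 44 genes in control libraries, at 1509 normalized reads per kilobase, and 11 in RBP4 libraries, at 579. No exon of BUB1 overlapped an exon of another gene in GENCODE 29.

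BUB1B, which encodes the BUB1-related checkpoint protein BUBR1, had 1177, 1181 and 1256 normalized reads in RBP4 libraries, against 1669, 1708 and 1624 in control libraries. The groups did not overlap, and the fall was 1.38-fold (log2 fold change -0.47, SE 0.043, limma adjusted p = 7.0e-15). MAD2L1, whose product binds and holds CDC20, had 1514, 1573 and 1619.6 in RBP4 libraries, against 2303, 2448 and 2413 in control libraries. This 1.52-fold fall was the next largest of the checkpoint list after BUB1. BUB3, which tethers BUB1 and BUBR1 to the kinetochore, averaged 2958 ± 20.9 in RBP4 libraries and 3621 ± 103 in control libraries, and TTK, the kinase MPS1 that starts checkpoint signalling, averaged 1351 ± 47.2 and 1637 ± 56.6 in the same order. Both fell, by 0.29 and 0.28 on the log2 scale. MAD1L1, the scaffold that carries MAD2 to unattached kinetochores, had 707, 761 and 599 normalized reads in RBP4 libraries, against 677, 642 and 715 in control libraries. Its groups overlapped, and its log2 fold change of 0.017 had a 95% interval of -0.12 to 0.15 (limma adjusted p = 0.848).

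Promoters from RefSeq (GRCh38.p14, 250 bases before to 50 after the start of each gene) were found for 37 of the 44 genes; those of BUB3, TTK, KNL1, BIRC5, AURKA, UBE2C and TPX2 were not in the table. They were searched on both strands for the cell cycle homology region (TTTGAA or TTTAAA), an element through which the MuvB complexes act on late cell cycle genes, and for the CCAAT box, the site of NF-Y. At least 1 cell cycle homology region was found in 29 of the 37 (78.4%), against 24.3% of 27305 promoters of all genes, and a CCAAT box in 28 (75.7%), against 35.7%. Of the 29 genes with a promoter that fell, 25 held the first motif and 25 the second; of the 8 others, 4 and 3 did. The E2F letters TTTCGCGC, TTTGGCGC, TTTCCCGC or TTTGCCGC were present in 8.11%, against 3.33%. The 5 promoters below are those of BUB1, its paralogue BUB1B, 2 late cell cycle genes that fell (CCNB1 and CDC20) and SGO1, the gene tested with the log2 fold change closest to 0. Capitals mark cell cycle homology regions and CCAAT boxes, the boxes as CCAAT or, on the other strand, ATTGG; no 2 of the marked motifs overlap.
BUB1: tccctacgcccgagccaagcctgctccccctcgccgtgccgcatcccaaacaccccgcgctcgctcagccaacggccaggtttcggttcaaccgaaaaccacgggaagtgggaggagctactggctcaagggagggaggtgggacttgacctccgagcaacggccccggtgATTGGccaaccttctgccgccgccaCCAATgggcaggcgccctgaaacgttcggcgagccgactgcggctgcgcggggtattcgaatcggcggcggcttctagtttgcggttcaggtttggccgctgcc
BUB1B: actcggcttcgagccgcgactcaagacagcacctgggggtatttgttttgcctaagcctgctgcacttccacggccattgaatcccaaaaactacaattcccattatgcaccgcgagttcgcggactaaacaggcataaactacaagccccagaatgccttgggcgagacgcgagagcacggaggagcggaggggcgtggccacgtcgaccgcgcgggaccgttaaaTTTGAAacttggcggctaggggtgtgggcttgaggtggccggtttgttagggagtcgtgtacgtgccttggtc
CCNB1: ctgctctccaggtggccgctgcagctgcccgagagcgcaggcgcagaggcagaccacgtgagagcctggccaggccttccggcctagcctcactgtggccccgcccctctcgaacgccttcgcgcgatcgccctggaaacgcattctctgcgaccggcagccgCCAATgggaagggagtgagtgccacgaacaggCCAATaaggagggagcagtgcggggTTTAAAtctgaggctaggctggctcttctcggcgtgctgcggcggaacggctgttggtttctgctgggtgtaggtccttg
CDC20: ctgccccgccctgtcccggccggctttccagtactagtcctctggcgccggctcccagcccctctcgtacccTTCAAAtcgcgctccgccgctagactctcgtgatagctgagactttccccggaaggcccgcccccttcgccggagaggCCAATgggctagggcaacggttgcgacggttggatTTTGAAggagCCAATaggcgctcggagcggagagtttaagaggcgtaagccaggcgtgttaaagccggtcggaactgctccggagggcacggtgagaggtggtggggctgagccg
SGO1: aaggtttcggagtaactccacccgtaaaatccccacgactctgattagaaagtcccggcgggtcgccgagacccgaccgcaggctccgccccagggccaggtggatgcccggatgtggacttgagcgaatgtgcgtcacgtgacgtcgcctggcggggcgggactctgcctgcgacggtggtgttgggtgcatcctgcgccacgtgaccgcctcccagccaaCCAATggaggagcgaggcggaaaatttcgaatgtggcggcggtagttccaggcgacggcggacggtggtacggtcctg
They lie at chr2:110678014-110678313 (minus strand), chr15:40160819-40161118 (plus), chr5:69166900-69167199 (plus), chr1:43358731-43359030 (plus) and chr3:20186157-20186456 (minus). The BUB1 window held 2 CCAAT boxes, at positions -79 and -54 from the start, and no TTTGAA or TTTAAA. No other letters were searched for the cell cycle homology region. BUB1B held TTTGAA at -23 and no CCAAT box, and CCNB1 and CDC20 held both motifs. SGO1 held 1 CCAAT box, at -28. A match is a description of these letters in this window and was not tested as a site.

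The comparison of interest was how BUB1 stood against the other checkpoint and kinetochore genes. A ratio of values within a library does not depend on how libraries are scaled, apart from the 1 added to each value, so the ratio of BUB1 to each of 15 such genes, CDC20 included, was taken in every library. BUB1 over BUB1B was 2.96, 2.94 and 2.79 in RBP4 libraries, against 5.48, 5.31 and 5.57 in control libraries. The groups stood apart in all 15 ratios, with BUB1 relatively lower in every RBP4 library. The difference of the mean log2 ratio, RBP4 minus control, ran between -0.78 (MAD2L1) and -1.61 (CENPE), with a median of -1.15. In the two-sided exact permutation test over the 20 regroupings of the 6 libraries, each p was 0.10, the smallest that 3 against 3 allow, so no ratio could pass 0.05; adjusted over the 15 pairs each was 0.10. The upper bound of the 95% interval of the BUB1 log2 fold change, -1.33, lay below the lower bound of every other gene of the set tested, the lowest of which was -0.94 (PRC1).

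**Figure D2:**
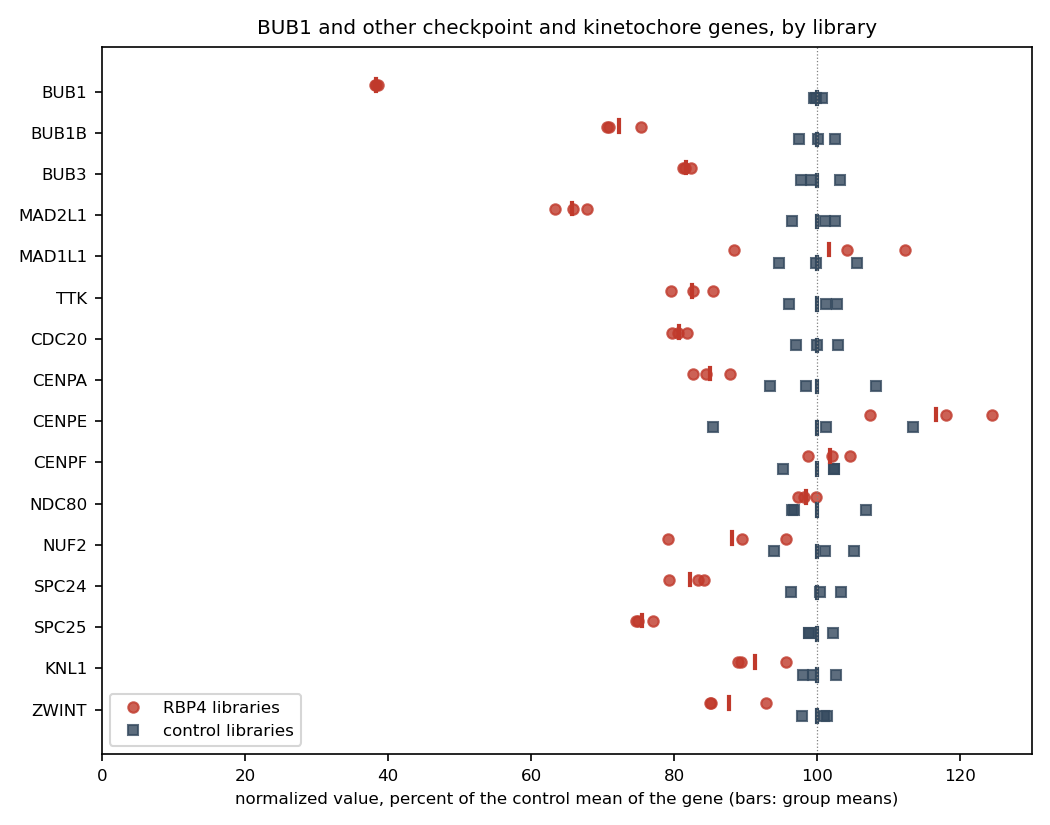
Normalized value in each library as a percent of the control mean of the gene, for BUB1 and 15 other checkpoint and kinetochore genes; red circles are RBP4 libraries, dark squares control libraries and bars the group means. BUB1 sits near 38% in the 3 RBP4 libraries, and the groups overlap for MAD1L1, CENPE, CENPF, NDC80 and NUF2.

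**Figure D3:**
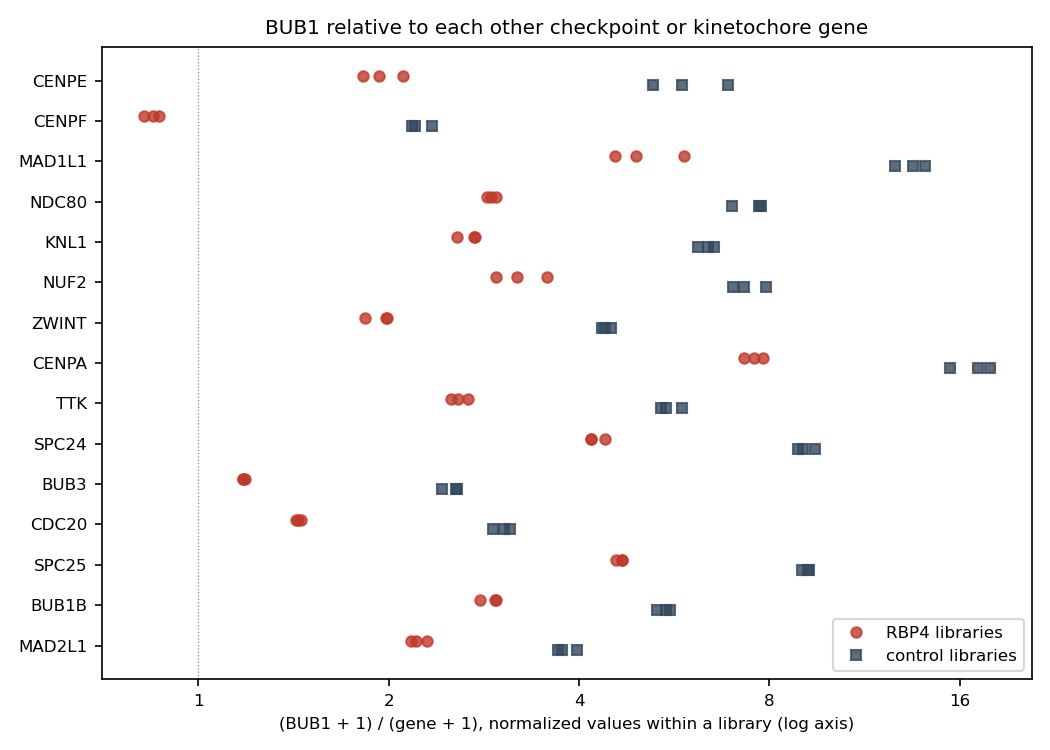
Ratio of BUB1 to each other checkpoint or kinetochore gene within a library, on a log axis; red circles are RBP4 libraries and dark squares control libraries. For each of the 15 genes the 3 RBP4 ratios lie left of the 3 control ratios.

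Of the 9 kinetochore and centromere genes, 6 fell (66.7%, beside 26.1% of all genes tested), and CENPE, CENPF and NDC80 missed the threshold. Their median log2 fold change was -0.19. Within the 4 subunits of the NDC80 complex, which binds microtubules, the log2 fold changes spread over 0.38. SPC25, in the end of the complex that faces the centromere, had 744, 742 and 766 normalized reads in RBP4 libraries, against 1016, 983 and 983 in control libraries (log2 fold change -0.40, SE 0.052, limma adjusted p = 6.6e-10). SPC24, its partner there, fell by 0.28. NDC80, in the microtubule-binding end, had 1216, 1195 and 1186 in RBP4 libraries, against 1179.8, 1301 and 1176 in control libraries. Those values overlap, and the 95% interval of its log2 fold change was -0.12 to 0.07; scaled to total reads the estimate was 0.05. NUF2, the partner of NDC80, had a log2 fold change of -0.19 with overlapping groups, and its call was lost without RBP4 library 2 (-0.11, limma adjusted p = 0.081).

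CENPE, a kinetochore motor that carries chromosomes to the spindle equator, varied widely between control libraries, with 1916, 1652 and 1816 normalized reads in RBP4 libraries, against 1746, 1559 and 1315 in control libraries. Its log2 fold change of 0.23 did not pass (SE 0.13, limma adjusted p = 0.224), but without control library 1 it was 0.32 and passed (0.0172). CENPF, which links kinetochores to dynein, averaged 4136 ± 119 in RBP4 libraries and 4066 ± 168 in control libraries (log2 fold change 0.025, limma adjusted p = 0.537); scaled to total reads it was 0.09 and passed (0.012). CENPA, the centromeric histone, fell by 0.23, a call lost without control library 2 (-0.17, limma adjusted p = 0.0505). KNL1, the platform on which BUB1 and BUB3 assemble, fell by 0.13, and its call was lost without RBP4 library 1 (-0.12, limma adjusted p = 0.0529) or RBP4 library 2 (-0.11, 0.0528). ZWINT, which binds KNL1, fell by 0.19.

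The chromosomal passenger complex corrects wrong attachments, and shugoshins protect the cohesion of sister centromeres. All 4 subunits of the complex fell, where 26.1% of all genes tested did. INCENP, the scaffold, had 1433, 1457 and 1468 normalized reads in RBP4 libraries, against 2106, 2083 and 1948 in control libraries (log2 fold change -0.49, SE 0.040, limma adjusted p = 4.5e-17). CDCA8 (borealin) fell by 0.34 and BIRC5 (survivin) by 0.20. AURKB, the kinase of the complex, fell by 0.14, and its call was lost without RBP4 library 2 (-0.12, limma adjusted p = 0.0505) or control library 3 (-0.12, 0.0531). SGO1, which protects cohesin at mitotic centromeres, averaged 370 ± 10.2 in RBP4 libraries and 368 ± 26.1 in control libraries, with a 95% interval of -0.15 to 0.16 for its log2 fold change. SGO2 stood at -0.16, past the threshold (limma adjusted p = 0.0204), but its call was lost without RBP4 library 1 (-0.15) or 2 (-0.15), or control library 2 (-0.13) or 3 (-0.15). SGO1 shared 17.7% of its exon bases with SGO1-AS1, from which the libraries, not marked for strand, cannot separate it.

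Among the cyclins, CDK1 and its activators, 6 of 8 fell, 1 rose and 1 did not pass. CCNB1, the main mitotic cyclin, had 2015, 2004 and 2075 normalized reads in RBP4 libraries, against 2893, 3063 and 3043 in control libraries. The groups were well apart, at a log2 fold change of -0.56 (SE 0.035, limma adjusted p = 2.6e-22). CDK1, its kinase, had 3143, 2945 and 3167 in RBP4 libraries, against 4123, 4341 and 4241 in control libraries. CCNA2, the S and G2 phase cyclin, and CDK1 fell by 0.47 and 0.46, while CCNB2 fell by 0.24. AURKA, the centrosome kinase that activates PLK1, fell by 0.45 and PLK1, which acts in mitotic entry and spindle assembly, by 0.29. CDC25B, a phosphatase that starts CDK1 activation, was the 1 gene of the set that rose, with 980.2, 1079 and 1003 normalized reads in RBP4 libraries, against 924, 845 and 933 in control libraries (log2 fold change 0.18, SE 0.052, limma adjusted p = 0.00248). CDC25C, the related phosphatase, averaged 416 ± 22.6 in RBP4 libraries and 454 ± 13.2 in control libraries, with overlapping groups (limma adjusted p = 0.128).

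At anaphase onset, CDC20 had 2398, 2423 and 2459.9 normalized reads in RBP4 libraries, against 3009.6, 2921 and 3097 in control libraries. It fell by 0.31 (SE 0.034, limma adjusted p = 6.5e-12). PTTG1 (securin), the inhibitor that is destroyed at anaphase, and ESPL1 (separase), the protease that it restrains, both fell by 0.25. UBE2C, the ubiquitin-conjugating enzyme of the anaphase-promoting complex, had 11.6, 28.3 and 8.58 normalized reads in RBP4 libraries, against 5.17, 4.02 and 8.57 in control libraries, where the median gene of the set averaged 1754. It was too low to be tested. With no filter its log2 fold change was 1.19 (limma adjusted p = 0.0257), on 4 to 30 reads a library, with 2 libraries, both RBP4, at 10 or more. In the authors' deposited comparison UBE2C did not pass (log2 fold change 1.46, adjusted p = 0.0839). GENCODE 29 lists 4 genes named as pseudogenes of UBE2C. Whether reads were shared with them was not examined, so the value of UBE2C is uncertain.

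Spindle, midzone and cytokinesis genes fell in 8 of 9 cases (88.9%, beside 26.1% of all genes tested). KIF23, the kinesin of the central spindle, had 724, 685 and 686 normalized reads in RBP4 libraries, against 974, 1099 and 1029 in control libraries. Its log2 fold change of -0.56 (SE 0.054) was close to that of CCNB1. KIF20A, another midzone kinesin, fell by 0.43 and KIF11, the motor that separates spindle poles, by 0.38. TPX2, which activates AURKA on spindles, KIF2C, a microtubule depolymerase, and ANLN, a scaffold of the cleavage furrow, also fell, with log2 fold changes of -0.26, -0.26 and -0.25. KIF4A, a chromosome-bound kinesin, averaged 1085 ± 31.8 in RBP4 libraries and 1153 ± 58.3 in control libraries and did not pass (log2 fold change -0.09, limma adjusted p = 0.128), although its groups did not overlap.

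PRC1, which bundles midzone microtubules, and NUSAP1, which binds spindle microtubules near chromosomes, were, with UBE2C, the 3 lowest genes of the set per kilobase, at 12.4 and 61.5 normalized reads per kilobase in RBP4 libraries and at 19.3 and 74.5 in control libraries. PRC1 had 59.9, 70.8 and 75.4 normalized reads in RBP4 libraries, against 109, 114 and 97.4 in control libraries (log2 fold change -0.63, SE 0.16, limma adjusted p = 4.7e-04). In GENCODE 29, 57.6% of the exon bases of PRC1 are shared with AC068831.7, a gene on the same strand that averaged 462 normalized reads in RBP4 libraries and 796 in control libraries in the authors' deposited table. Of the exon bases of NUSAP1, 62.2% are shared with AC087721.2, not analysed here. No other gene of the set shared 50% or more of its exon bases, and 27 shared none. How reads on shared exons were counted is not given in the sources used here, so the levels of PRC1 and NUSAP1 are uncertain. The NUSAP1 log2 fold change of -0.27 (limma adjusted p = 0.0233) was also lost without RBP4 library 1 (-0.27) or 3 (-0.27) or control library 3 (-0.23).

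TOP2A, the topoisomerase that untangles sister chromatids, was the most abundant gene of the set per kilobase, with 12558, 12199 and 12884 normalized reads in RBP4 libraries, against 14695, 14967 and 15197 in control libraries. It fell by 0.25 (SE 0.023, limma adjusted p = 6.7e-15). MKI67, the proliferation marker that coats mitotic chromosomes, had 4731, 4894 and 4761 in RBP4 libraries, against 6124, 5993 and 6014 in control libraries. It fell by 0.33. By groups that do not overlap, 35 of the 43 genes were lower in every RBP4 library than in any control library, where 28.9% of all genes tested were, and 1 was higher, where 27.3% were. Of the 44 genes, 31 were past an adjusted p of 0.05 with a negative log2 fold change in the authors' deposited table, all among the 35 here, and 1 with a positive one. Of all genes with a p-value in the authors' deposited table, 11.1% had an adjusted p under 0.05 and a negative log2 fold change and 9.48% a positive one.

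**Figure D4:**
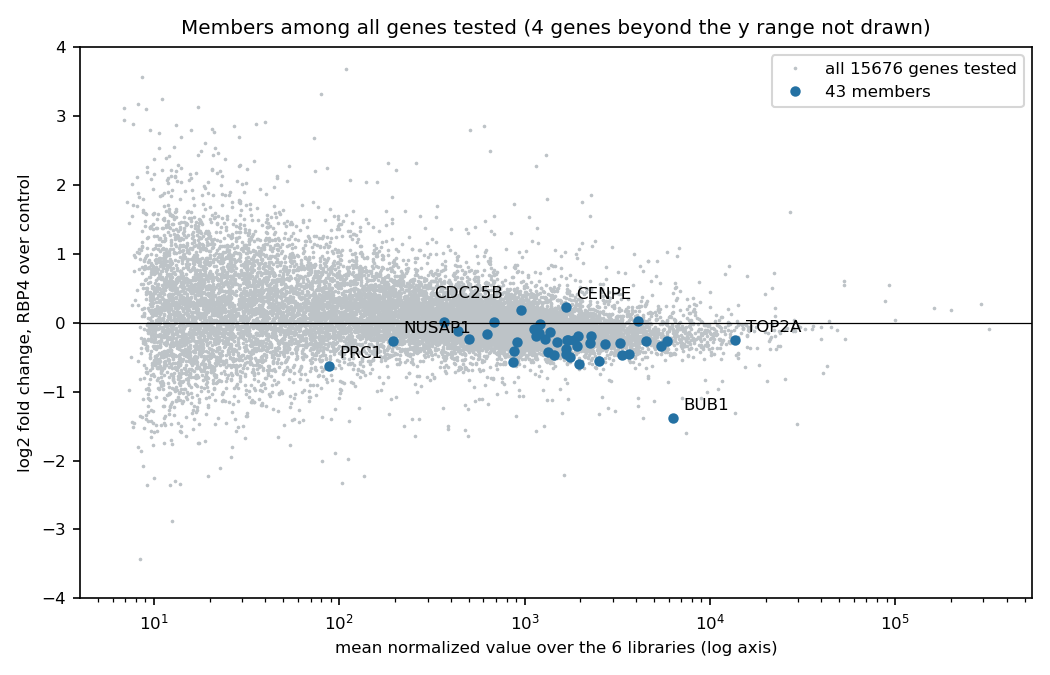
Log2 fold change, RBP4 over control, against the mean normalized value over the 6 libraries (log axis), for the 15676 genes tested (grey; 4 beyond the vertical range are not drawn) and the 43 mitosis genes (blue). The interquartile range of the means of the mitosis genes is 1040.0 to 2399, and most lie below 0, with BUB1 lowest at -1.38 and PRC1 and NUSAP1 at low values.

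Related genes outside the set were read from 6 further lists, 118 genes in all. All 118 were tested: 64 fell, 16 rose and 38 missed the threshold. The share that fell was 54.2%, beside 26.1% of all genes tested, and the share that rose 13.6%, beside 24.5%. At the middle levels of the mitosis set, 51.0% of genes fell and 16.4% rose, although many of the 118 genes lay below those levels. The median log2 fold change of the 118 genes was -0.13. Of 17 genes of the anaphase-promoting complex and its regulators, 11 fell (64.7%) and 2 rose (11.8%). ANAPC5, a subunit, fell by 0.34 and FBXO5 (EMI1), an inhibitor, by 0.47, while the subunits ANAPC16 and ANAPC2 rose by 0.33 each. Of 17 condensin and cohesin genes, 11 fell (64.7%) and 1 rose (5.88%). NCAPD3 of condensin II fell by 0.48, SMC4 by 0.33, and NCAPH2 rose by 0.14. Of 13 further enzymes of mitotic entry and exit, 9 fell (69.2%) and 1 rose (7.69%). The centrosome kinase NEK2 fell by 0.41, ARPP19, an inhibitor of PP2A, by 0.27, and HASPIN, a histone H3 kinase, rose by 0.31. Of 22 further spindle and cytokinesis genes, 14 fell (63.6%) and 2 rose (9.09%). FAM83D, which positions the spindle, averaged 674 ± 59.1 normalized reads in RBP4 libraries and 1163 ± 25.9 in control libraries (log2 fold change -0.79, limma adjusted p = 3.9e-20), TACC3 fell by 0.44, and ASPM and CKAP2 rose by 0.32 and 0.17.

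The 30 further kinetochore and centromere genes held 11 that fell (36.7%), 8 that rose (26.7%) and 11 that missed the threshold, beside 26.1% and 24.5% of all genes tested. At the middle levels of the mitosis set, 51.0% of genes fell and 16.4% rose, although many of these 30 genes lay below those levels. Their median log2 fold change was 0.03. CENPC, which anchors the kinetochore to CENP-A, averaged 896 ± 16.6 normalized reads in RBP4 libraries and 1335 ± 58.6 in control libraries, a fall of 0.57 (limma adjusted p = 1.1e-16), and HJURP, the chaperone of CENP-A, fell by 0.45. MIS12, which joins KNL1 and the NDC80 complex to the centromere, averaged 593 ± 46.8 in RBP4 libraries and 422 ± 3.37 in control libraries, a rise of 0.49 (limma adjusted p = 5.9e-09), and SKA1, which couples kinetochores to microtubules, rose by 0.46. Among 19 regulators of late cell cycle transcription, 8 fell (42.1%), 2 rose (10.5%) and 9 did not pass. FOXM1, an activator of G2 and M phase genes, had 541, 617 and 642 normalized reads in RBP4 libraries, against 649.9, 569 and 635 in control libraries, with overlapping groups (log2 fold change -0.04, 95% interval -0.17 to 0.08, limma adjusted p = 0.589). MYBL2 (B-MYB), the partner of MuvB, fell by 0.18 and RBL2 by 0.23, while TFDP2 rose by 0.22 and RB1 by 0.16.

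**Figure D5:**
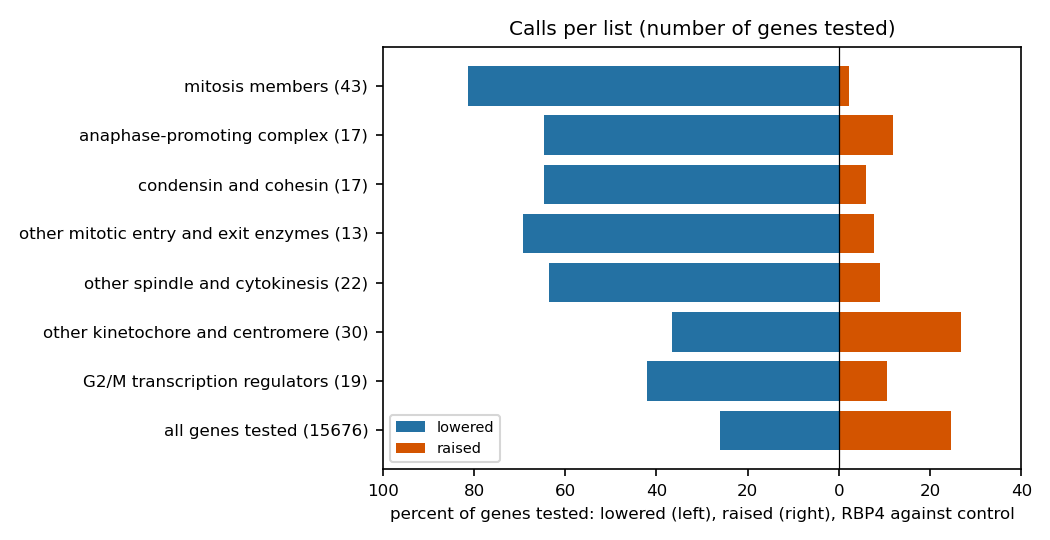
Percent of the tested genes of each list that fell (left) or rose (right) in RBP4 against control libraries, with the number tested in brackets. The mitosis set has 81.4% falling, the further kinetochore list 36.7% falling and 26.7% rising, and all genes tested 26.1% falling.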

How the data were processed

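RNA was measured in 6 libraries, grouped by their titles. Per the labels' protocols, mRNA was selected on poly-T beads and made into libraries with a kit that does not mark strand. The authors deposited a normalized signal per gene and library, and a comparison of their own, with log2 fold changes and p-values. All signals (100%) were whole multiples of 1 step per library within 0.01 reads, as read counts divided by a size factor are; the recovered reads gave depth and the read-based alternatives. No aligner, counter or normalizing tool was named in the labels or headers. All 28847 genes had the start and end of GENCODE 29 (GRCh38). No per-sample column was left unused (0 columns).

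The genes that reached 10 in 3 or more libraries were fitted as log2(value + 1) with limma-trend, robust (R 4.3.3, limma 3.58.1), two-sided, with Benjamini-Hochberg adjustment over all genes tested at 0.05. The fit was tested on simulated data. Fold changes on this scale understate those of low genes. BUB1 ratios were compared by exact permutation. Alternatives were a pseudocount of 5, no filter, at least 5 CPM in 3 libraries, total-read scaling, edgeR 4.0.16 with TMM, DESeq2 1.42.0, a replicate block, protein-coding genes only, and leaving out each library. The genes and lists were chosen with earlier results of these data known. Genes outside the set were named as the 2 lowered and 2 raised of each list with the smallest p past the threshold, plus FOXM1 and MYBL2. Libraries of a group differed by more than counting noise (chi-square per degree of freedom 1.81 to 2.19), so none was treated as a library deposited again; this does not show separate cultures.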

Additional observations from a re-analysis of the deposited data

How the results depend on the processing

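Of the 35 genes that fell, 29 stayed past the threshold in the same direction under all 14 alternatives; CENPA, NUF2, KNL1, AURKB, SGO2 and NUSAP1 were lost in at least 1. Scaling to total reads gave the set a median log2 fold change of -0.19; 30 genes fell and 2 rose (CENPF, at 0.09, was added), and NUF2, KNL1, AURKB, SGO2 and NUSAP1 were lost; the median of all genes moved by 0.068. That scaling also left 7 lowered genes each in the anaphase-promoting complex, further kinetochore, and condensin and cohesin lists, and 3 raised in the last. DESeq2 lost SGO2 and NUSAP1, and raised 1 regulator of late cell cycle transcription, as did no filter. Raised genes of the set numbered 2 with no filter and under the replicate block. Leaving out 1 library gave 31 to 35 lowered and 1 to 2 raised genes of the set, 0 to 2 raised condensin and cohesin genes and 1 to 2 raised regulators. Directions that reversed belonged to genes not past the threshold: NDC80 (0.046 with total reads, -0.047 to 0.026 leaving out 1 library), and, leaving out 1 library, MAD1L1 (-0.058 to 0.11), CENPF (-0.0098 to 0.047) and SGO1 (-0.040 to 0.061). Leaving out 1 library moved the smallest of the 15 BUB1 ratio differences to between -0.80 and -0.75; that the groups stood apart is fixed under these alternatives, scaling and the block, and says nothing of stability. Same-numbered libraries did not deviate together (correlations 0.0037, -0.0079 and -0.017), so numbers do not pair them; the block added CENPE (adjusted p = 0.00925). The cause of these changes was not tested.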

Other observations

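Genes near BUB1 were read after its values had been seen. Within 500 kb on either side, 4 other genes passed the filter on low values. ACOXL, an acyl-CoA oxidase-like gene that lies 54459 bases beyond the 5′ end of BUB1, had 3.87, 2.83 and 2.86 normalized reads in RBP4 libraries, against 14.5, 31.2 and 18.2 in control libraries. It reached the minimum value of 10 in the control libraries and in none of the RBP4 libraries, so no test of it is given. MIR4435-2HG, a long non-coding RNA, averaged 609 in RBP4 libraries and 821 in control libraries by the authors' deposited means (log2 fold change -0.43, SE 0.057). BCL2L11 and MTLN did not pass, at -0.10 (limma adjusted p = 0.227) and -0.18 (0.267).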
